A study of Homo sapiens with 20 samples.

Results

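The 10 genes described here are *CHGA*, *CHGB*, *SCG2*, *SCG3* and *VGF* of the granin family, the prohormone convertases *PCSK1* and *PCSK2*, their binding proteins *PCSK1N* and *SCG5*, and the carboxypeptidase *CPE*. They were chosen by name, through the Ensembl identifier of each symbol, and all 10 were found among the 60624 identifiers listed for human islet-like organoids (hILOs) and the 60623 listed for pancreatic progenitors (PPs).

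Endocrine cells store peptide hormones in dense-core granules. Granins are acidic proteins that help to build these granules and load them, and several are themselves cut into peptides. Inside the granule the convertases PC1/3 (*PCSK1*) and PC2 (*PCSK2*) cut prohormones such as proinsulin and proglucagon at pairs of basic residues, CPE then trims the exposed basic residues, and in islets this chain of steps yields insulin and C-peptide.

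The RNA-seq libraries came from the MEL1 human embryonic stem cell line, in which 1 insulin allele carries a GFP reporter (INS-GFP/W), taken through a stepwise protocol to PPs and on to hILOs. WT cells carry no further edit. A5-KO cells descend from the same line after CRISPR-Cpf1 was aimed at the first exon of *ALKBH5*, an eraser of the m6A mark on mRNA, and count as a single edited line. hILOs were untreated, with 2 WT and 2 A5-KO libraries. PPs were given actinomycin D (Act D), which blocks transcription, at 1 μg/ml and collected at 0 h (control), 1, 2 and 3 h, with 2 libraries for each genotype and time and 16 in all. The labels do not say that the 2 libraries of a group came from separate cultures, so *p*-values measure only the spread between these libraries.

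*ALKBH5* stood at 78.8 and 81.9 TPM (read share corrected for transcript length) in WT hILOs and at 4.16 and 3.42 TPM in A5-KO hILOs, and in PPs at 0 h it was at 149 and 172 CPM (share of reads with no correction for length) against 19.1 and 18.8 CPM, so the libraries carried the genotype of their labels. The PP libraries held 30516384 to 35206514 reads, and 3 reads corresponded to 0.0852 to 0.0983 CPM. All 7 islet endocrine markers reached 1 TPM in hILOs, and their summed level was 16175 to 16211 TPM in WT and 9718 to 9735 TPM in A5-KO. *INS* made up most of this sum. Both A5-KO libraries lay below both WT libraries for *INS*, *GCG*, *SST*, *NKX2-2* and *PAX6*, but above them for *NEUROD1* and *INSM1*. The TPM of *INSM1* was 259 and 267 (WT) against 316 and 305 (A5-KO), with a limma adjusted *p* of 0.0325, under the 1.5-fold limit. The 6 hepatocyte markers summed to 11699 to 12034 TPM in WT and to 15665 to 16053 TPM in A5-KO. Of these, *ALB*, *AFP*, *APOA2* and *TF* rose and *APOA1* overlapped, while *FGB* fell from 1362 and 1394 TPM to 737 and 748 TPM. The 5 enterochromaffin markers summed to 1312 to 1315 TPM in WT and 1069 to 1142 TPM in A5-KO. *TPH1*, *DDC*, *SLC18A1* and *FEV* were lower in both A5-KO libraries, while *LMX1A* overlapped, at 124 and 120 TPM (WT) and 138 and 124 TPM (A5-KO). The 6 mesenchyme markers summed to 4.16 to 8.29 TPM in WT and 25.8 to 28.7 TPM in A5-KO, where *POSTN* made up most of the sum. The part of such shifts in the values below was not tested, and in bulk samples fewer cells of a type and less RNA per cell cannot be told apart.

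The first question was how the granule genes differ between A5-KO and WT hILOs. They did not move as 1 block. *SCG2* rose 1.87-fold and *VGF* fell to 0.593 of the WT level, while *CHGA* and *CHGB*, the granins most used as endocrine markers, did not pass the test. By the adjusted *p* alone, both convertases were lower and both of their binding proteins were higher. All 10 genes passed the filter of a mean of at least 1 TPM. With limma, 1 gene was called higher and 1 lower (over 1.5-fold, with an adjusted *p* by Benjamini-Hochberg below 0.05), against 2.7% of 17300 genes called higher and 4.09% called lower. By adjusted *p* alone, 4 of the 10 were higher and 3 lower, against 5.27% and 7.32% of all genes. The median difference of the 10 was 0.08 on the log2(TPM + 1) scale, and that of all genes tested was -0.06. The A5-KO libraries both lay above both WT libraries for 5 of the 10 and both below for 4, and the same held for 24.3% and 37.1% of all genes tested.

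**Figure D1:**
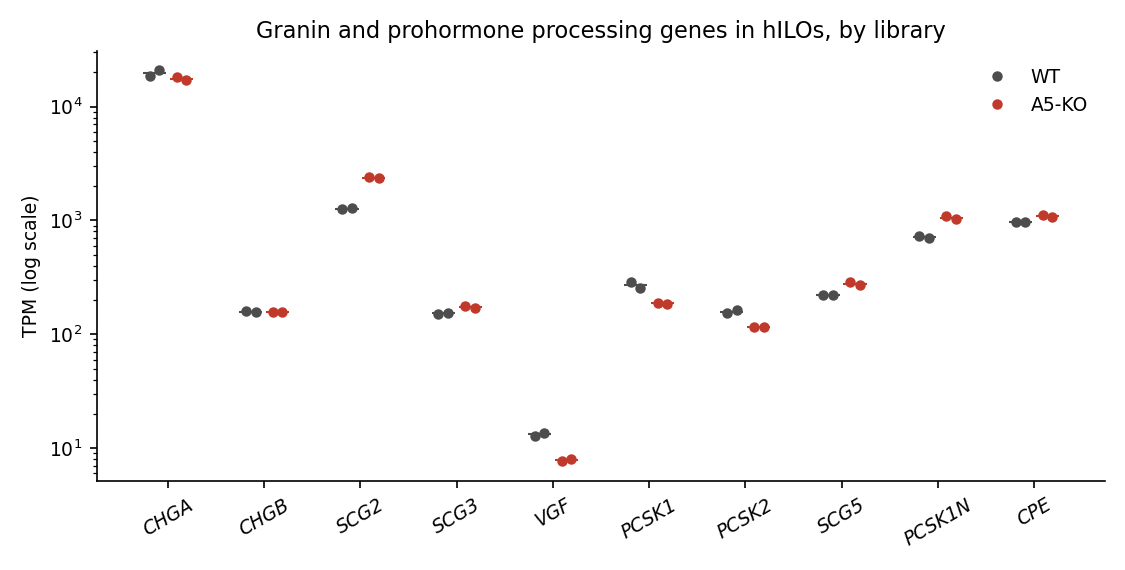
Level of each of the 10 genes in every hILO library, in TPM on a log axis. Grey points are the 2 WT libraries, red points the 2 A5-KO libraries, and short lines their means. *CHGA* lies far above the others, *SCG2* and *PCSK1N* are higher in A5-KO, and *VGF*, *PCSK1* and *PCSK2* are lower.

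*CHGA* (chr14:92923150-92935285, plus strand, GRCh38) encodes chromogranin A, the acidic core protein of dense-core granules. Its level was 18470 and 20798 TPM (WT) and 18215 and 17011 TPM (A5-KO). It was the most abundant of all listed genes in both WT libraries and ranked 2 in both A5-KO libraries. *CHGA* alone made up 2.00% and 2.25% of the listed TPM in WT and 2.03% and 1.92% in A5-KO. The A5-KO values lay just under the lower WT value, and the difference of -0.16 (SE 0.07) did not pass limma (adjusted *p* = 0.227). With quantile normalization it was -0.34 (limma adjusted *p* = 0.00368), still under the 1.5-fold limit.

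*CHGB* (chr20:5911510-5925353, plus strand) encodes chromogranin B, a second granule matrix protein. It stood at 159 and 156 TPM (WT) and 157 and 156 TPM (A5-KO). The groups overlapped, with a difference of -0.01 (SE 0.04), and its sign turned under other scalings.

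*SCG2* (chr2:223596940-223602361, minus strand) encodes secretogranin II, the precursor of the peptide secretoneurin. It rose from 1256 and 1279 TPM in WT to 2382 and 2354 TPM in A5-KO, and the libraries of each genotype lay close together. Its rank among all listed genes moved from 96 and 95 to 29 and 25. The difference was 0.90 (SE 0.03; limma adjusted *p* = 0.00213), and the call was kept under every alternative tried in hILOs, with values of 0.89 to 1.04 and adjusted *p* (limma) of 0.00162 to 0.0371. Set against chromogranin A in the same library, *SCG2* was at 0.0680 and 0.0615 of the *CHGA* level in WT and at 0.131 and 0.138 in A5-KO.

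*SCG3* (chr15:51681492-51721026, plus strand) encodes secretogranin III, which tethers granins to the granule membrane. Its level was 152 and 155 TPM (WT) and 178 and 169 TPM (A5-KO). Both A5-KO libraries were above WT by a small step, and the difference of 0.17 (SE 0.04) did not pass limma (adjusted *p* = 0.0794). With each library rescaled to the same total it was 0.22 (limma adjusted *p* = 0.0397). Median-of-ratios scaling gave 0.24 (limma adjusted *p* = 0.0285) and quantile normalization 0.19 (limma adjusted *p* = 0.0765), all under the 1.5-fold limit.

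*VGF* (chr7:101162509-101165569, minus strand) encodes a granin-like precursor of several neuroendocrine peptides and was the least abundant of the 10. It fell from 12.8 and 13.6 TPM in WT to 7.68 and 8.00 TPM in A5-KO, with no overlap. The difference was -0.69 (SE 0.10; limma adjusted *p* = 0.0278). The call was lost without the filter on low values (adjusted *p* = 0.0661 with limma), and it was also lost whichever library was left out (0.0974 to 0.136).

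*PCSK1* (chr5:96390333-96434143, minus strand) encodes PC1/3, the convertase that makes the first cut in proinsulin. Its level was 287 and 254 TPM (WT) and 188 and 186 TPM (A5-KO). Every A5-KO value was below both WT values. The difference was -0.53 (SE 0.07; limma adjusted *p* = 0.0216), short of the 1.5-fold limit. With 1 library left out it ran from -0.62 to -0.44, and it was past that limit only without WT library 2.

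*PCSK2* (chr20:17226107-17484578, plus strand) encodes PC2, the convertase that matures glucagon in alpha cells. It stood at 152 and 162 TPM (WT) and 116 and 117 TPM (A5-KO). The groups were separate here too, with a difference of -0.43 (SE 0.05; limma adjusted *p* = 0.0161). The ratio of *PCSK1* to *PCSK2* was 1.89 and 1.56 in WT and 1.62 and 1.60 in A5-KO, so the proportion of the convertases to each other overlapped between genotypes.

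The binding proteins went the opposite way. *PCSK1N* (chrX:48831096-48835610, minus strand) encodes proSAAS, an inhibitor of PC1/3. Its level was 726 and 707 TPM (WT) and 1096 and 1024 TPM (A5-KO). The A5-KO libraries were both higher by 0.56 (SE 0.04; limma adjusted *p* = 0.00803), a 1.48-fold change that missed the 1.5-fold limit and passed it once each library was rescaled to the same total (0.61).

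*SCG5* (chr15:32641676-32697098, plus strand) encodes 7B2, the chaperone that PC2 needs to mature. It stood at 221 and 223 TPM (WT) and 290 and 269 TPM (A5-KO), a difference of 0.33 (SE 0.05; limma adjusted *p* = 0.0283). Of its 2196 exon bases, 1140 are shared with the read-through gene *ARHGAP11A-SCG5* or the antisense gene *SCG5-AS1*, which the counting could confuse with it. *SCG5-AS1* was at most 0.0799 TPM. *ARHGAP11A-SCG5* was not found by symbol among the listed genes, so its part in the *SCG5* value was not checked.

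Within each library, proSAAS and its convertase moved apart. The ratio of *PCSK1N* to *PCSK1* was 2.52 and 2.78 in WT and 5.84 and 5.50 in A5-KO. The ratio of *SCG5* to *PCSK2* was 1.45 and 1.37 in WT and 2.51 and 2.30 in A5-KO. Neither ratio overlapped between genotypes, and such ratios do not depend on how libraries are scaled. With 2 libraries against 2, the exact two-sided permutation test gave *p* = 0.333 for both, the smallest value that this design allows.

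*CPE* (chr4:165361194-165498547, plus strand) encodes carboxypeptidase E, which removes the basic residues left by the convertases. It stood at 971 and 963 TPM (WT) and 1114 and 1073 TPM (A5-KO). Both A5-KO values were above WT, with a difference of 0.18 (SE 0.03; limma adjusted *p* = 0.0383). Relative to *INS*, its substrate's gene, *CPE* was at 0.0745 and 0.0742 in WT and at 0.146 and 0.141 in A5-KO. The same comparison for the convertases gave 0.0221 and 0.0196 (WT) against 0.0247 and 0.0245 (A5-KO) for *PCSK1* over *INS*. For *PCSK2* over *GCG* it gave 0.0695 and 0.0715 against 0.0913 and 0.0921. In both comparisons the convertase took a higher ratio to that hormone gene in A5-KO, and other substrates were not set against it. Each of these ratios had an exact permutation *p* of 0.333.

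**Figure D2:**
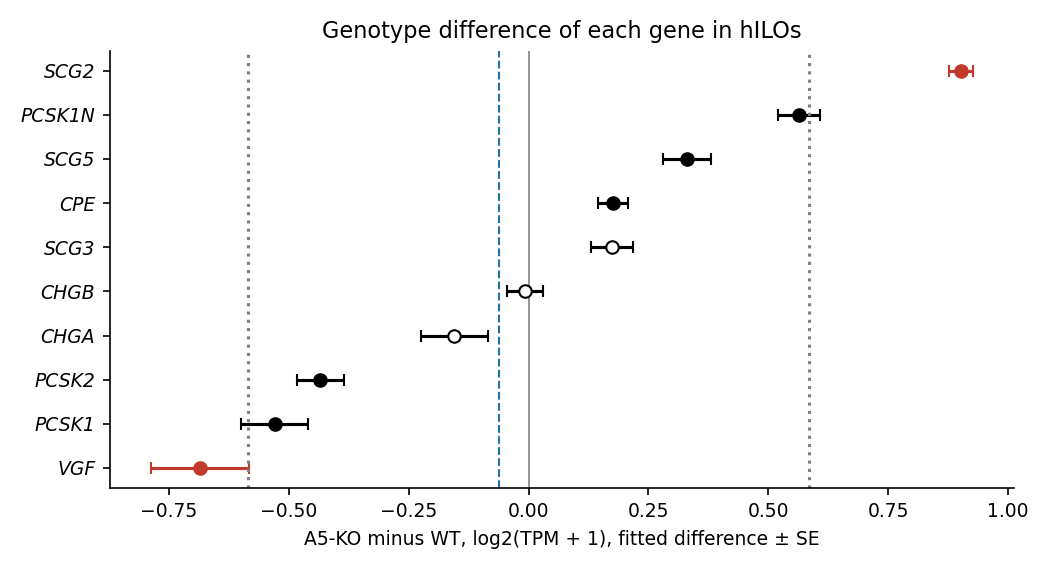
Fitted difference between A5-KO and WT hILOs for each gene, on the log2(TPM + 1) scale, with its SE (2 libraries per genotype). Red points were called, filled black points passed the adjusted *p* alone and open points passed neither limit. Dotted lines mark 1.5-fold and the dashed blue line is the median of all genes tested (-0.06). The genes spread from *VGF* (-0.69) to *SCG2* (0.90).

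Without the filter on low values, adjusted *p* (limma) was 0.0910 for *PCSK1*, 0.0623 for *PCSK2*, 0.0581 for *PCSK1N*, 0.0963 for *SCG5* and 0.133 for *CPE*, so none of these 5 passed. With 1 library left out, adjusted *p* (limma) for *PCSK1*, *PCSK2*, *PCSK1N*, *SCG5* and *CPE* ran from 0.0384 to 0.145, and that of *SCG2* from 0.0305 to 0.0309. A group left with a single library was assumed to vary like the other.

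Promoters were looked up for the 10 genes because a cAMP response element is a known feature of several of them. RefSeq (GRCh38.p14) gave a promoter, 250 bases before to 50 after the start, for 8 of the 10, and *CHGB* and *SCG2* had no entry. The palindrome TGACGTCA was searched in these windows, where a match on one strand is also a match on the other. It occurred in 1.85% of 35116 promoters. The 8 genes had 10 promoters together, and a match lay in a promoter of *CHGA*, of *PCSK1* and of *VGF*. The 30 bases around each match are shown to place the element, with the match in capitals, 5′ to 3′ on the strand of the gene. The match begins 54, 77 and 79 bases before the RefSeq start of *CHGA*, *PCSK1* and *VGF*, respectively. For *PCSK1*, that RefSeq start lies inside the gene span given above, whose outermost start is another one. The stretches lie at chr14:92923085-92923114 (plus), chr5:96433307-96433336 (minus) and chr7:101165630-101165659 (minus).
CHGA: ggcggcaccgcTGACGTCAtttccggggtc
PCSK1: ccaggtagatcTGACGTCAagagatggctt
VGF: tgaatgaacatTGACGTCAatggggcgggg
*PCSK1* and *VGF* were lower in A5-KO hILOs by the adjusted *p* of limma. So was *PCSK2* (limma adjusted *p* = 0.0161), which had a promoter entry but no match. *CHGA* did not pass the adjusted *p*, though both of its A5-KO libraries also lay under both WT libraries. These genes were not tested against each other. A match is a description of the letters and not of a bound site.

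The neighbouring steps of the peptide pathway were counted in lists, to be read against 2.7% of all genes called higher, 4.09% called lower and a median of -0.06. Of 7 other proprotein convertases, none was called in hILOs, the median difference was -0.13, and none passed the adjusted *p* alone. *FURIN*, the ubiquitous convertase of the secretory pathway, stood at 43.5 and 43.6 TPM (WT) and 51.7 and 48.7 TPM (A5-KO) (limma adjusted *p* = 0.106). Of 8 other peptide-finishing enzymes, 6 were tested, 1 was called higher and 1 lower, with a median of -0.17. *PAM*, which amidates the C-terminus of many peptides, fell from 53.4 and 93.1 TPM to 13.6 and 18.9 TPM. The groups did not overlap although the WT libraries differed widely, and the change was -2.07 (SE 0.32; limma adjusted *p* = 0.0290). The gene *CPM*, a membrane carboxypeptidase, rose from 11.4 and 11.4 TPM to 23.1 and 18.4 TPM (0.80). *CPD*, the carboxypeptidase of the trans-Golgi, overlapped between genotypes, at 65.0 and 67.4 TPM (WT) and 65.2 and 60.9 TPM (A5-KO).

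Of 12 other dense-core granule proteins, none was called higher and 2 were called lower, and the median difference was -0.22, against the same 2.7%, 4.09% and -0.06 over all genes. *PTPRN* (IA-2), a granule membrane protein, fell from 61.1 and 57.3 TPM to 39.3 and 34.2 TPM (-0.68; limma adjusted *p* = 0.0223). *SLC18A1*, a vesicular monoamine transporter, fell from 44.8 and 36.7 TPM to 26.0 and 23.2 TPM (-0.70).

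Of 24 precursors that the convertases cut, 20 were tested, 6 were called higher and 6 lower, with a median of -0.23, against 2.7% and 4.09% of all genes and a median of -0.06. *PPY*, *SST* and *TAC1* had the largest falls. *PPY* went from 101 and 80.1 TPM to 16.2 and 11.1 TPM, *SST* from 381 and 367 TPM to 108 and 107 TPM, and *TAC1* from 33.3 and 33.6 TPM to 8.74 and 9.56 TPM. *CCK*, *PENK* and *SCT* had the largest rises. *CCK* went from 0.285 and 0.104 TPM to 5.99 and 6.65 TPM, *PENK* from 2.57 and 0.694 TPM to 8.27 and 9.48 TPM, and *SCT*, the secretin precursor, from 111 and 117 TPM to 448 and 447 TPM. The others called lower were *INS*, *GCG* and *NMB*, and the others called higher were *GAST*, *CRH* and *MLN*.

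Of 12 transcription factors of endocrine cells, *REST* included, 2 were called higher and 1 lower, with a median of 0.08. Over all genes, 2.7% were called higher and 4.09% lower, with a median of -0.06. *NEUROD1*, a driver of endocrine genes, rose from 208 and 209 TPM to 352 and 350 TPM, and *PAX4* rose from 54.8 and 53.6 TPM to 83.6 and 80.9 TPM. *NEUROG3*, the inducer of the endocrine fate, fell from 2.38 and 2.44 TPM to 0.586 and 0.747 TPM. *REST*, a repressor of neuroendocrine genes including granins, was at 5.17 and 5.50 TPM (WT) and 4.33 and 1.05 TPM (A5-KO) (limma adjusted *p* = 0.282).

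Of the 19 genes of these lists called in hILOs, 8 were called whichever library was left out, namely *CRH*, *GAST*, *GCG*, *INS*, *NEUROD1*, *SCT*, *SST* and *TAC1*. *PPY* was called in 2 of these 4 fits, and *CCK*, *MLN* and *PENK* in 1. *PAM*, *CPM*, *PTPRN*, *SLC18A1*, *NMB*, *PAX4* and *NEUROG3* were called in none of the 4 fits with 1 library left out, where *PAM* ran from -2.46 to -1.67 (limma adjusted *p* = 0.0523 to 0.113).

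**Figure D3:**
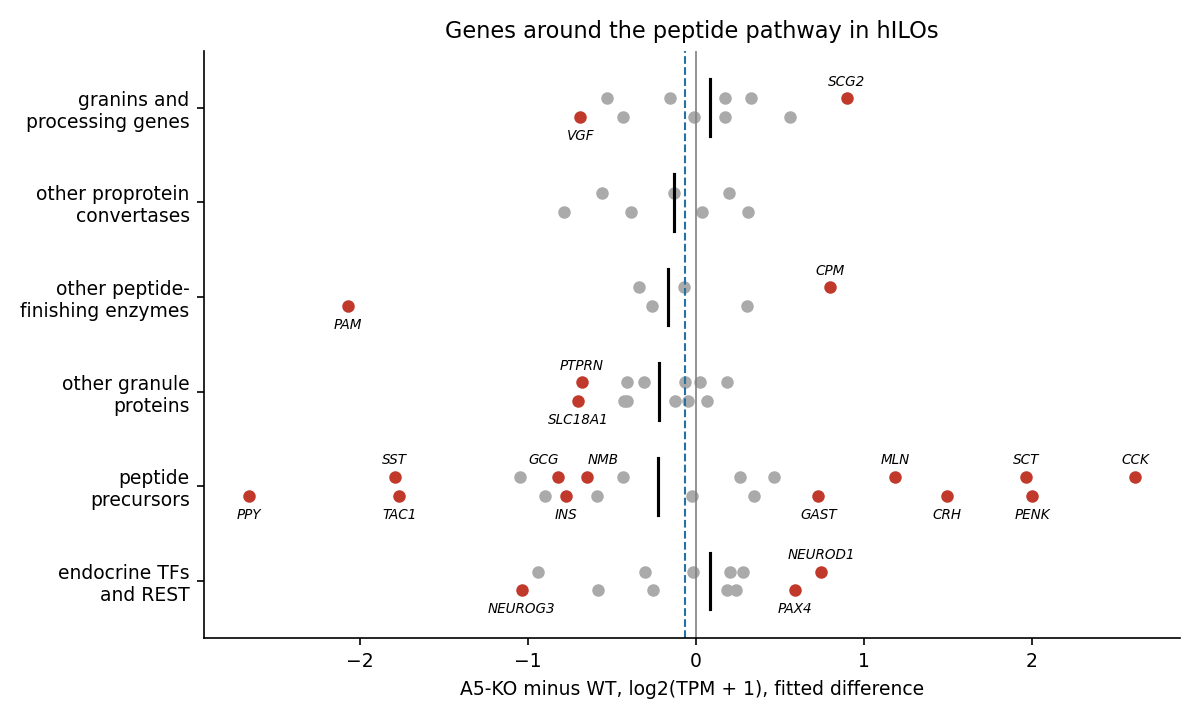
Fitted difference between A5-KO and WT hILOs for the 10 genes and for 5 lists of genes around the peptide pathway, on the log2(TPM + 1) scale. Each point is a gene tested, red and named where called, and the black bar is the median of the row. The dashed blue line is the median of all genes tested. Peptide precursors spread from *PPY* (-2.66) to *CCK* (2.62).

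PPs come before the endocrine cells, and the second question was what of the machinery is already transcribed there and whether genotype matters. Of 8 pancreatic progenitor markers, 7 reached 1 CPM at 0 h, while *INS* and *GCG* were at 0 reads in the 4 libraries of 0 h. Only *SCG2*, *PCSK1N* and *CPE* of the 10 reached a mean of 1 CPM, both at 0 h and over all 16 libraries, and the other 7 entered no test with the filter.

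To set genes side by side, CPM was divided by exon length and rescaled, which gives TPM. *CPE* was first, at 182 and 192 TPM in WT at 0 h, rank 584 and 548 among the listed genes. *PCSK1N* followed at 22.5 and 28.1 and *SCG2* at 5.35 and 6.55 TPM. *VGF* was at 1.21 and 0.874, and *CHGA* at 0.183 and 0.678 TPM. *CHGB* was at 0.125 and 0.307, and *PCSK1*, *PCSK2*, *SCG3* and *SCG5* were each at or below 0.250 TPM, where neighbours in the order overlapped. In hILOs the order was another one, led by *CHGA*, then *SCG2*, *CPE* and *PCSK1N*. The tables were normalized separately, so no fold between stages is given.

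The 7 low genes rested on few reads. *CHGA* had 2 to 152 reads per library, with a median of 8. Its highest values were 4.51 CPM in a single WT library at 2 h and 1.89 CPM in a single A5-KO library at 0 h, while the other library of each of these groups was at 0.578 and 0.293 CPM. *VGF* was steadier, at 18 to 55 reads, or 0.525 to 1.61 CPM. *CHGB* had 1 to 23 reads, *PCSK2* 0 to 25, *PCSK1* 2 to 13, *SCG3* 0 to 10 and *SCG5* 0 to 4. *SCG5* was at or under 3 reads in 14 of 16 libraries and *PCSK2* in 8. With no filter, none of the 7 differed between genotypes at 0 h by limma (lowest adjusted *p* = 0.569, and 0 of 7 at an unadjusted *p* below 0.05), which at this depth does not show that they were equal.

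At 0 h, no difference between genotypes was detected for the 3 tested genes. None was called by limma, edgeR or DESeq2, and none had an unadjusted limma *p* below 0.05, against 1.57% of 13911 genes called higher and 1.13% called lower. *CPE* was at 176 and 190 CPM (WT) and 181 and 178 CPM (A5-KO). *PCSK1N* was at 9.36 and 11.9 CPM (WT) and 9.86 and 13.0 CPM (A5-KO). *SCG2* was at 4.28 and 5.36 CPM (WT) and 4.11 and 4.69 CPM (A5-KO). The groups overlapped for each, with differences of -0.03 (SE 0.07), 0.09 (SE 0.18) and -0.10 (SE 0.18) on the log2(CPM + 1) scale. The hepatocyte markers summed to 762 CPM in both WT libraries at 0 h and to 1585 to 1596 CPM in A5-KO, and the mesenchyme markers to 49.2 to 53.0 CPM and 142 to 144 CPM. *AFP* made up most of the hepatocyte sums, at 563 and 551 CPM (WT) and 1343 and 1294 CPM (A5-KO). *ALB*, *APOA1* and *FGB* were also higher in both A5-KO libraries, while *APOA2* and *TF* overlapped.

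In the lists, at 0 h, the carboxypeptidase gene *CPM* fell from 20.8 and 22.3 CPM to 12.7 and 13.4 CPM, the opposite of its direction in hILOs, and no other finishing enzyme and no other convertase was called. *CADPS*, a priming factor of granule release, fell from 16.9 and 16.2 CPM to 7.66 and 9.58 CPM. Of the precursors, *PYY* fell from 60.3 and 69.3 CPM to 22.3 and 25.2 CPM and *NTS* rose from 16.9 and 19.5 CPM to 45.6 and 41.2 CPM. In hILOs both went the opposite way, under the 1.5-fold limit. *PYY* was there at 0.35 and *NTS* at -0.43 (limma adjusted *p* = 0.0133 and 0.0200). *RFX6*, a factor upstream of islet cells, rose from 4.88 and 3.47 CPM to 15.4 and 9.90 CPM.

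The third question was how these transcripts held up once transcription was blocked. CPM is a share of the library, so each change under Act D is relative to all other transcripts, and the 0 h libraries serve every later comparison with 0 h. The median gene was itself lower at 3 h than at 0 h by -0.09 in WT and -0.22 in A5-KO on the log2(CPM + 1) scale, and median-of-ratios scaling, which sets the median gene near 0, moved it to 0.03 in A5-KO. The same scaling moved the median of the genotype difference at 3 h from -0.13 to -0.0084, and that of the difference between genotypes in the change from -0.17 to -0.000503.

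*CPE* held a larger share at 3 h than at 0 h in both genotypes. In WT it was at 205 and 206 CPM at 1 h, 200 and 192 CPM at 2 h and 219 and 217 CPM at 3 h. In A5-KO it was at 226 and 248 CPM at 1 h, 287 and 289 CPM at 2 h and 255 and 250 CPM at 3 h. Both A5-KO libraries were above both WT libraries at each of the 3 times, and the gap was widest at 2 h.

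At 3 h against 0 h, *CPE* was higher by 0.25 (SE 0.07; limma adjusted *p* = 0.0202) in WT, which was lost without the WT 0 h library 1 (0.258) or either WT 3 h library (0.0928 and 0.0546, limma adjusted *p*). In A5-KO it was higher by 0.49 (SE 0.07; limma adjusted *p* = 1.69e-05). Neither passed the 1.5-fold limit, and none of the 3 genes was called in WT (0.338% of 13620 genes higher and 10.1% lower) or in A5-KO (2.15% higher and 30.9% lower). With edgeR on the recovered reads, *CPE* (0.78) and *PCSK1N* (0.68) were called higher in A5-KO. The difference between genotypes in this change was 0.24 for *CPE* (SE 0.10; limma adjusted *p* = 0.0971) and was called for none of the 3 (0.72% of all genes positive and 14.1% negative). It was 0.43 with median-of-ratios scaling (limma adjusted *p* = 0.0277) and with edgeR (adjusted *p* = 0.0289), under the 1.5-fold limit in both, and 0.18 with quantile normalization.

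Between genotypes, *CPE* was higher in A5-KO by 0.55 at 2 h (SE 0.07; limma adjusted *p* = 8.68e-05) and by 0.21 at 3 h (limma adjusted *p* = 0.0279), the latter lost without any single library of that time (0.0662 to 0.136). The 3 h value moved with the scaling, to 0.35 with median-of-ratios (limma adjusted *p* = 0.00624) and with edgeR (adjusted *p* = 0.00669). With quantile normalization the 3 h value was 0.15 (limma adjusted *p* = 0.130). At 2 h the change was under 1.5-fold with limma and over it with edgeR (0.65). None of the 3 genes was called at 2 h, when 2.66% of all genes were called higher and 4.24% lower, or at 3 h, when 1.15% were higher and 17.7% lower.

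*PCSK1N* was called higher in A5-KO at 1 h, as 1 of 3 genes tested, against 2.94% of all genes called higher and 1.15% called lower. It stood at 11.5 and 11.2 CPM (WT) and 17.3 and 20.5 CPM (A5-KO), a difference of 0.68 (SE 0.19; limma adjusted *p* = 0.0354). The call was lost with no filter (limma adjusted *p* = 0.116), without either WT 1 h library or the A5-KO 1 h library 2 (0.169 to 0.281), and without either A5-KO 2 h library (0.0540 and 0.0539). At 2 h it was at 14.8 and 17.9 CPM (WT) and 23.4 and 21.4 CPM (A5-KO) (limma adjusted *p* = 0.131). At 3 h the groups overlapped, with 16.1 and 10.8 CPM (WT) and 16.1 and 14.3 CPM (A5-KO) (0.492).

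*SCG2*, which was higher in A5-KO hILOs, did not pass the test at any time in PPs. It was at 5.58 and 6.67 CPM (WT) and 4.23 and 3.91 CPM (A5-KO) at 1 h, a difference of -0.49 (SE 0.19; limma adjusted *p* = 0.136). At 2 h the groups overlapped, with 5.39 and 4.10 CPM (WT) and 4.09 and 4.46 CPM (A5-KO). At 3 h it was at 4.86 and 5.53 CPM (WT) and 2.98 and 4.30 CPM (A5-KO) (-0.43; limma adjusted *p* = 0.101). These values rest on 105 to 205 reads per library.

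At 3 h, the hepatocyte markers summed to 1140 to 1291 CPM in WT and 1850 to 1953 CPM in A5-KO, and the mesenchyme markers to 95.8 to 103 CPM and 202 to 215 CPM. Both sums were above their 0 h values in each genotype, and single markers were not compared at 3 h. The pancreatic progenitor markers summed to 859 to 1111 CPM in WT and 813 to 928 CPM in A5-KO at 0 h, and to 331 to 354 CPM and 78.3 to 89.6 CPM at 3 h. The part of these sums in the share of *CPE* was not tested.

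Genes whose pattern over the 16 PP libraries was most like that of a member were ranked by Pearson's r on log2(CPM + 1), as a description. For *CHGA* they were *ST8SIA2* (0.83), *PSD4* (0.79), *PITPNM2* (0.78), *SNX19* (0.76) and *TNS2-AS1* (0.75). For *PCSK1* they were ENSG00000282221 (0.80), *ACKR3* (0.77), *ANKDD1B* (0.77), *DUSP19* (0.76) and *DSG3* (0.74). Both genes are sparse in PPs, so these likenesses rest on a few reads, and for *CHGA* largely on 2 libraries. For *CPE*, added after its values were seen, the closest were *LCN15* (0.96), *RPN2* (0.95), *SLC39A5* (0.95), *SPARC* (0.95) and *MMP14* (0.95), in libraries that share their times of Act D.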

How the data were processed

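RNA-seq of 4 hILO and 16 PP libraries was analysed. For hILOs, the authors trimmed reads with fastp, aligned them with HISAT2 (2.1.0, in the submitters' processing notes) to GRCh38 and deposited TPM per gene from StringTie. For PPs, the authors deposited CPM per gene after removal of spike-ins, and the read counter is not given in the sources used here. TPM keeps no depth, while the CPM values were whole multiples of 1 read (within 0.05), which gave back the reads of each PP library. A CPM value near 3 reads has a wide counting error.

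Genotypes were compared with limma (3.58.1, R 4.3.3; eBayes with trend) on log2(value + 1), for genes whose mean reached 1, hILOs and 0 h PPs each in a fit of 4 libraries and Act D times in 1 fit of 16. Calls needed a change over 1.5-fold with *p* below 0.05 after Benjamini-Hochberg adjustment over all genes tested. Alternatives used edgeR (4.0.16) and DESeq2 (1.42.0) on recovered reads, other pseudocounts, filters and scalings, a replicate block, and leaving out each library. The main limma fits and the basic edgeR and DESeq2 fits were run on simulated data. For the fit of 16 libraries this covered only the difference between genotypes in the change from 0 h. The other settings, the ratios, the levels per length and the promoter search were not simulated. Tables and figures used Python 3.11.15.

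The 10 genes and the lists were chosen with earlier results of these data known. All 10 are named. Of each list, called genes were named, up to 3 a direction by size of change, together with *PAM*, *CPD*, *FURIN* and *PTPRN*, and the 5 genes most like *CHGA* and *PCSK1*. *INS*, *GCG*, *NMB*, *GAST*, *CRH*, *MLN*, *REST*, the cell type markers named singly and the list genes named for leaving out a library were added after their values were seen. Coordinates, exon lengths and overlaps are from GENCODE on GRCh38. Exon lengths were matched for 60369 PP identifiers and the other 254 were left out of levels per length.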

Additional observations from a re-analysis of the deposited data

Results flagged for a closer look

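A gene is listed here where both A5-KO libraries lay on one side of both WT libraries at a stage or time and on the other side at another. With 2 libraries per group this happens easily, and the differences between stages were not tested, because hILO and PP values are in separate units. *SCG2* was higher in A5-KO hILOs (0.90) and lower in A5-KO PPs at 1 h (-0.49) and 3 h (-0.43), differences between stages of -1.39 and -1.33 on the log2(value + 1) scale. *SCG3* was higher in A5-KO hILOs (0.17) and lower in A5-KO PPs at 2 h (-0.22), apart by -0.40. At 2 h *SCG3* rested on 4 and 7 reads in the WT libraries and 0 and 0 reads in the A5-KO libraries. *PCSK1* was lower in A5-KO hILOs (-0.53) and higher in A5-KO PPs at 0 h (0.12) and 2 h (0.22), apart by 0.64 and 0.75. In PPs, *PCSK1* was lower in A5-KO at 3 h (-0.08), which is -0.20 from 0 h (limma interaction without a filter, unadjusted *p* = 0.222, adjusted *p* = 0.636) and -0.30 from 2 h (not tested). The PP values of *PCSK1* rest on 2 to 13 reads per library, at 0.0568 to 0.426 CPM. At such low values the 1 added before the log shrinks any difference. The gaps between stages given here therefore also reflect level and unit, and are not sizes of a change.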

How the results depend on the processing

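Of the log2 differences of single genes under an alternative, 515 kept direction and stayed called or not called, though some crossed the adjusted *p* limit alone, 12 became calls, 12 lost a call and 18 changed sign. In hILOs, 0 genes instead of 1 were called lower with no filter and with the replicate block, and 3 by adjusted *p* alone. With 1 library left out, *VGF* ran from -0.73 to -0.64 and *PCSK1* from -0.62 to -0.44. The count called higher was 2 with median-of-ratios scaling, quantile normalization and TPM rescaled to the same sum (added after the data were seen), 4 by adjusted *p* alone, and 1 to 2 with 1 library left out. At 1 h, 0 were called higher with no filter and 0 to 1 with 1 library left out. At 2 h, 1 was called higher with median-of-ratios scaling and with edgeR. For 3 h against 0 h in A5-KO, 2 were called higher with median-of-ratios scaling and edgeR and 1 with quantile normalization.

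Signs turned only for differences that were not called. In hILOs, *CHGB* was 0.0426 with TPM rescaled, 0.0571 with median-of-ratios scaling, 0.00955 with quantile normalization and -0.0203 to 0.00570 with 1 library left out. In PPs at 0 h, leaving out 1 library gave -0.239 to 0.0306 for *SCG2*, -0.0918 to 0.278 for *PCSK1N* and -0.0808 to 0.0256 for *CPE*. *SCG2* at 2 h was 0.0383 with quantile normalization and -0.279 to 0.0472 with 1 library left out, and at 3 h *PCSK1N* was -0.0789 to 0.448. For 3 h against 0 h, *SCG2* was -0.0399 to 0.229 in WT with 1 library left out, and in A5-KO 0.359 with quantile normalization and 0.00694 with edgeR. The genotype difference in that change was 0.0771 for *SCG2* with quantile normalization and -0.172 to 0.354 for *PCSK1N* with 1 library left out. The cause was not tested.

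Libraries with the same replicate number did not deviate together in hILOs (r = -0.01) and had r of -0.06 to 0.18 in PPs, so the numbers were not taken to pair the libraries. The highest r, 0.18, was at 0 h. With the replicate block, the *VGF* call in hILOs was lost (limma adjusted *p* = 0.0691), no other gene of the 10 changed its call, *SCG5* (0.0554) and *CPE* (0.0699) no longer passed the limma adjusted *p* alone, and genes called over the whole table at hILO stage went from 707 to 385 lower and from 467 to 289 higher. At 0 h in PPs they went from 157 to 266 lower and from 218 to 365 higher. Without a filter, 187 and 143 were called in hILOs, and 77 and 87 in PPs at 0 h. With 1 library left out, 96 to 203 lower and 83 to 118 higher were called in hILOs.

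*CPE* per length in PPs at 0 h was 187 TPM in WT and 179 in A5-KO, and 172 and 166 with the longest transcript as length. With 2 libraries per group, differences near 0.2 on the log2 scale could not be settled.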
